A study of Rattus norvegicus with 18 samples.

Results

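The genes described here are 5 genes of vascular growth and vascular tone, followed through the hearts of 18 male Wistar rats at an age of 3 weeks. They were taken from the deposited table of 30560 genes by Ensembl ID and are Vegfa (ENSRNOG00000019598), Kdr (ENSRNOG00000046829), Flt1 (ENSRNOG00000000940), Nos3 (ENSRNOG00000009348) and Edn1 (ENSRNOG00000014361). The table holds IDs without names, and no source used here pairs them (0 of 30560 IDs), so the symbols are those given with the selection and were not checked. All 5 IDs were found, and all 5 were among the 17009 genes with enough counts to test.

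The hearts fell into 3 groups by exposure during gestation: a vehicle (7 offspring), cannabidiol at 3 mg/kg/day (CBD3, 6 offspring) or cannabidiol at 30 mg/kg/day (CBD30, 5 offspring). Cannabidiol is a cannabinoid of the cannabis plant that does not intoxicate. No label gives the composition of the vehicle, the route of dosing or which animals shared a litter, and p-values treat the hearts as independent. RNA came from heart tissue in bulk, so each value averages over every cell type present. In such tissue, fewer cells of a type and less RNA per cell cannot be told apart. The check of the tissue against cell type markers was not made, because it needs gene names.

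Vascular endothelial growth factor A, the product of Vegfa, is a secreted signal that makes endothelial cells divide, migrate and survive; in the heart, cardiomyocytes are among its sources, and low oxygen raises it. It binds a pair of receptor tyrosine kinases on endothelium: KDR (VEGFR2), which carries most of the growth signal, and FLT1 (VEGFR1), which binds the ligand tightly, signals weakly and in its soluble form acts as a decoy. Vessel calibre is set by opposed signals, among them nitric oxide, made in endothelium by the synthase that Nos3 encodes, which relaxes smooth muscle, and endothelin-1, the peptide that Edn1 encodes, which contracts it.

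The sequences just before the start of each gene were compared first, as a feature that the selection did not use. RefSeq's table of promoters (build GRCr8, not the mRatBN7.2 build named for the counts) held all 5 symbols, with 2 starts for Vegfa, of which the first was used. The printed stretches end before the annotated gene: chr9:22452604-22452853 on the plus strand for Vegfa, chr14:32571813-32572030 on the plus strand for Kdr, chr4:11706605-11706831 on the minus strand for Nos3 and chr17:22666688-22666937 on the minus strand for Edn1. The window of Flt1 lies inside the annotated span of the gene and is described by counts only. Each is written 5′ to 3′ on the strand of its gene, and capitals mark matches, on either strand, to 5 short motifs. The GC box was searched as GGGCGG. For the TATA box the letters were TATAAA. The core of the site bound by hypoxia-inducible factors was searched in the forms ACGTG and, separately, GCGTG. For the GATA site they were AGATAA. None of these motifs contains another. They are shown because the genes differ here: Edn1 alone of the 5 lacks a GC box.
Vegfa: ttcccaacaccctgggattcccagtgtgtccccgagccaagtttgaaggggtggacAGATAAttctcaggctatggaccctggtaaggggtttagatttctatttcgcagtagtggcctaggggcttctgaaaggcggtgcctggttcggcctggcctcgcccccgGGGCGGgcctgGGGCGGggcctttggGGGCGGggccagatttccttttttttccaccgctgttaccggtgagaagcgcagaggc
Kdr: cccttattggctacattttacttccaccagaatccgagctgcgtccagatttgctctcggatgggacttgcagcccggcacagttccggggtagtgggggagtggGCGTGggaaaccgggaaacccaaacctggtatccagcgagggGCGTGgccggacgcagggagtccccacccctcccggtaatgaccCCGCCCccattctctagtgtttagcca
Nos3: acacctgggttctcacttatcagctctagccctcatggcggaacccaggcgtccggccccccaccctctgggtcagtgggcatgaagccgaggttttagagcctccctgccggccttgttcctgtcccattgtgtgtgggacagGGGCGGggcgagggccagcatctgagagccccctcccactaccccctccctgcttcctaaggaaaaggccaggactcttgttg
Edn1: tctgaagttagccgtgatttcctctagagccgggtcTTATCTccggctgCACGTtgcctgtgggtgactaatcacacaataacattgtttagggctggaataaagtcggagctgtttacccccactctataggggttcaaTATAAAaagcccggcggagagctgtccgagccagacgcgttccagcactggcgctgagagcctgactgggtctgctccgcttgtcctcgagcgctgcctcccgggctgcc

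Over the 250 bases before the start, Vegfa held 3 GC boxes, Flt1 3, Kdr 1, Nos3 1 and Edn1 0. Such a box was present in 30.5% of all 33469 windows of the same length. TATAAA was found once in Edn1 and once in Flt1, against 12.9% of all windows. The letters GCGTG occurred 2 times in Kdr and once in Flt1 (25.9% of windows), and ACGTG once in Edn1 (16.6%). AGATAA lay once in Vegfa and once in Edn1 (10.3% of windows). The share of G and C ran from 56.4% in Edn1 to 73.2% in Flt1, all above the median window at 51.2%. Flt1 had 27 CpG dinucleotides, and 7.69% of windows had as many or more, while Nos3 had the fewest of the 5 genes at 7 (median window 5). The motifs were chosen after the sequences were seen, and a match of letters shows neither binding nor use.

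Levels are given as CPM, the counts of a gene relative to the library's total, scaled between libraries by TMM, a factor per library that assumes most genes do not differ. CPM is not corrected for gene length, so each gene is compared between hearts and not with the other genes. Libraries held 44127009 to 89240727 counts, which gave 18524 to 61171 counts for Vegfa, 4171 to 13359 for Kdr, 2033 to 9313 for Flt1 and 3867 to 9685 for Nos3. Edn1 had only 51 to 225 counts in a library. Hearts are named here by their sample codes, such as 3.1, whose meaning the labels do not state. Codes ending in 1 had 63672078 to 89240727 counts and codes ending in 2 had 44127009 to 67302419, ranges that overlap little. On the first principal component of all tested genes (29.8% of the variance), the vehicle hearts 1.1 and 2.1 and the CBD30 heart 2.1 lay farthest from the centre. They lay at opposite ends, the vehicle hearts at -57.9 and -65.0 and the CBD30 heart at 65.5.

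Vegfa, the ligand, had the largest difference from vehicle of the 5 genes at CBD30 and, after Kdr, at CBD3, and neither difference passed adjustment over all genes. In vehicle hearts its level ran from 474 CPM in the heart coded 3.1 through a median of 586 to 720 CPM in 4.1. CBD3 hearts lay between 460 and 584 CPM, with a median of 492. The CBD30 hearts were at 471 (1.1), 392 (2.1), 330 (1.2), 517 (3.2) and 569 CPM (4.2). The groups overlap: 4 of the 7 vehicle hearts exceed every CBD3 heart and 5 exceed every CBD30 heart, while 2 CBD3 and 3 CBD30 hearts lie below the lowest vehicle heart.

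Vehicle hearts averaged 602 ± 80.4 CPM of Vegfa (SD, n = 7), CBD3 hearts 504 ± 44.8 (n = 6) and CBD30 hearts 456 ± 95.9 (n = 5). Against vehicle the log2 fold change was -0.25 ± 0.12 for CBD3 (SE; 95% interval -0.50 to -0.0048; edgeR adjusted p = 0.552, unadjusted 0.0462). For CBD30 it was -0.40 ± 0.13, or 0.757 of the vehicle level, with a 95% interval of -0.67 to -0.14 (edgeR adjusted p = 0.197, unadjusted 0.00494). No gene passed an adjusted p of 0.05 in these comparisons with edgeR (0% of 17009 genes called for CBD3, for CBD30 and between the doses). Unadjusted p-values under 0.05 were common: 1518 genes or 8.92% for CBD3 and 2794 or 16.4% for CBD30. On that scale Vegfa ranked 425 of 17009 for CBD30 and 1392 for CBD3.

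Other tools gave Vegfa a similar size. DESeq2 put the CBD30 difference at -0.38 (adjusted p = 0.0958) and limma voom at -0.41 (adjusted p = 0.186), and neither called it. DESeq2 called 133 genes for CBD30, 19 for CBD3 and 1 between the doses, and limma voom called 0 in each. Without the vehicle heart 3.1, the lowest of its group, the CBD30 difference of Vegfa was -0.45 ± 0.12 (SE; edgeR adjusted p = 0.0592), in a fit where 267 genes were called. Without the 3 hearts farthest out on the first component it was -0.30 ± 0.14 (adjusted p = 0.750). That component itself moved with Vegfa, Kdr and Flt1 (r = -0.73, -0.70 and -0.80 over the libraries). Leaving out vehicle hearts at 1 end and a CBD30 heart at the other is therefore not independent of the levels of these genes. The direction of Vegfa was the same in all 32 alternative fits for both doses. Its adjusted p ranged from 0.0592 to 0.998 for CBD30 and from 0.242 to 0.9999 for CBD3. These fits reuse the same hearts and are not independent of each other.

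**Figure D1:**
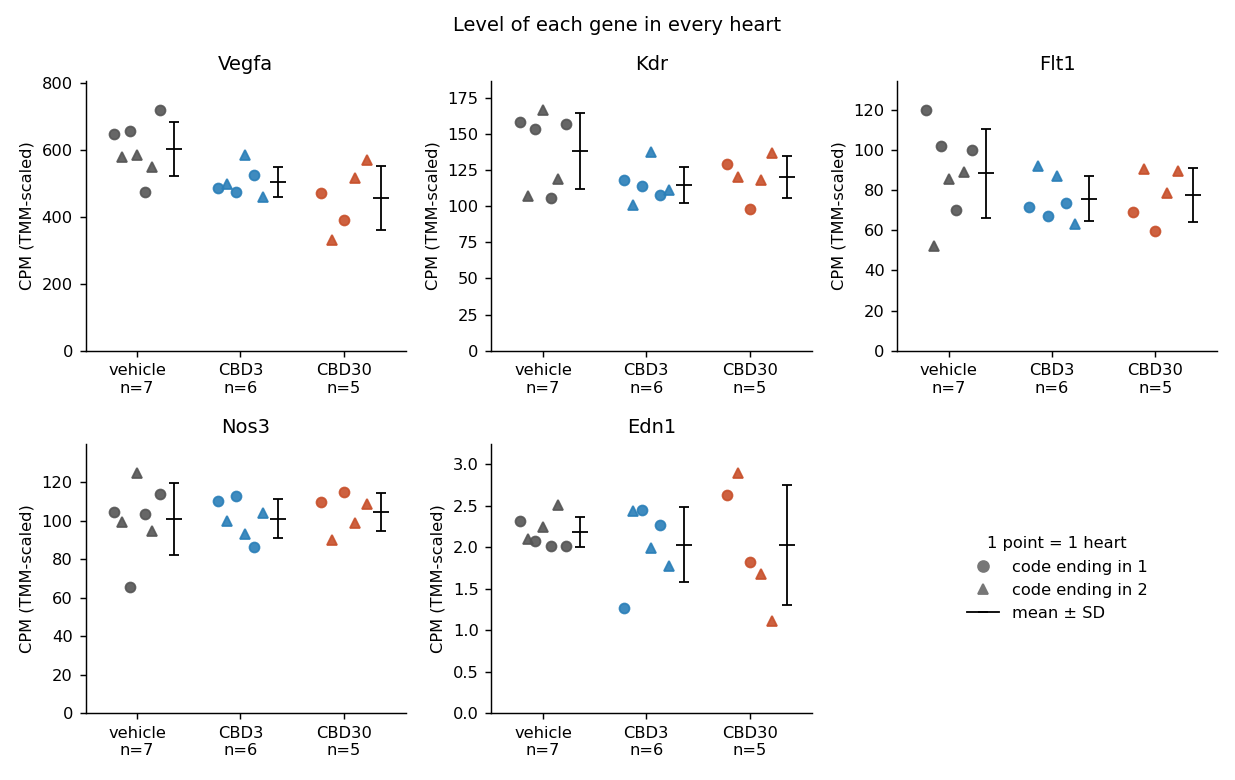
Level of each gene in every heart, in TMM-scaled CPM on an axis that starts at 0, by group; circles are hearts with a code ending in 1, triangles those ending in 2, and bars the mean ± SD. The points of Vegfa overlap around means of 602 CPM (vehicle) and 456 CPM (CBD30), while the group means of Nos3 lie at 100.9 to 104 CPM.

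Kdr, the main signalling receptor, was lower in mean after both doses and passed no adjusted test. Vehicle hearts ranged from 106 CPM (3.1) through a median of 153 to 167 CPM (2.2). In CBD3 hearts the range was 101 to 138 CPM with a median of 113. The CBD30 hearts stood at 129 (1.1), 97.8 (2.1), 120 (1.2), 118 (3.2) and 137 CPM (4.2). The groups overlap, with 4 of the 7 vehicle hearts above every exposed heart and the other 3 among them.

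Kdr averaged 138 ± 26.5 CPM over the 7 vehicle hearts (SD), 115 ± 12.5 over the 6 CBD3 hearts and 120 ± 14.7 over the 5 CBD30 hearts. The CBD3 difference was -0.27 ± 0.12 (log2, SE; 95% interval -0.51 to -0.016; edgeR adjusted p = 0.552, unadjusted 0.0379). For CBD30 the difference was -0.20 ± 0.13 (interval -0.46 to 0.064; edgeR adjusted p = 0.424, unadjusted 0.131). Without the 3 hearts farthest out these became -0.19 ± 0.12 and -0.056 ± 0.13 (edgeR adjusted p = 0.986 and 0.982). Without CBD30 2.1 alone the CBD30 value was -0.13.

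Flt1, the high-affinity receptor, had the widest spread of the 5 genes between vehicle hearts, a coefficient of variation of 25.2%, and passed no adjusted test. Its vehicle range was 52.2 CPM (1.2) to 120.0 CPM (1.1), with a median of 88.999. CBD3 hearts lay at 63.3 to 92.2 CPM with a median of 72.6. In CBD30 the values were 69.3 (1.1), 59.8 (2.1), 90.5 (1.2), 78.6 (3.2) and 89.7 CPM (4.2). All exposed hearts fall inside the vehicle range.

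The means of Flt1 were 88.4 ± 22.3, 75.8 ± 11.4 and 77.6 ± 13.2 CPM in vehicle, CBD3 and CBD30 hearts (SD; n = 7, 6 and 5). Log2 fold changes were -0.22 ± 0.16 for CBD3 (SE; interval -0.55 to 0.10; edgeR adjusted p = 0.588) and -0.19 ± 0.16 for CBD30 (interval -0.53 to 0.15; adjusted p = 0.555). Single hearts moved both: without vehicle 1.1 they were -0.14 and -0.10, without vehicle 1.2 they were -0.32 and -0.28, and without CBD30 2.1 the CBD30 value was -0.11. The CBD30 value turned to 0.046 ± 0.16 without the 3 hearts farthest out, and the CBD3 value came to -0.068 ± 0.14.

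Nos3, the endothelial nitric oxide synthase, had nearly the same mean in the 3 groups. Vehicle hearts lay between 65.8 CPM (2.1) and 125 CPM (2.2), with a median of 104. Hearts of the CBD3 group ranged from 86.2 to 113 CPM around a median of 102. The CBD30 hearts were at 110 (1.1), 115 (2.1), 90.2 (1.2), 98.6 (3.2) and 109 CPM (4.2). The groups overlap throughout, and both the lowest and the highest heart are vehicle hearts.

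The 7 vehicle hearts averaged 100.9 ± 18.5 CPM of Nos3 (SD), the 6 CBD3 hearts 101 ± 10.1 and the 5 CBD30 hearts 104 ± 9.86. The CBD3 difference was 0.0018 ± 0.11 (log2, SE), with a 95% interval of -0.24 to 0.24 (edgeR adjusted p = 0.996). For CBD30 it was 0.048 ± 0.12, with an interval of -0.20 to 0.30 (adjusted p = 0.851). Expressed as folds, the intervals run from 0.849 to 1.18 and from 0.869 to 1.23. The sign changed with scaling: by library size alone the values were -0.045 and -0.010. It also changed with 1 heart left out, in 6 such fits for CBD3 and 1 for CBD30. Farthest below 0 was the fit without vehicle 2.1, the lowest heart, at -0.080 for CBD3 and -0.034 for CBD30.

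Edn1, the endothelin-1 precursor gene, was scarce, and its mean differed little between groups. The vehicle hearts were tightly grouped, from 2.01 CPM (3.1) through 2.105 to 2.51 CPM (3.2). CBD3 hearts spread from 1.27 CPM (1.1) through 2.13 to 2.46 CPM (2.1). The CBD30 hearts were at 2.63 (1.1), 1.83 (2.1), 2.90 (1.2), 1.68 (3.2) and 1.11 CPM (4.2). In that group 2 hearts exceed every vehicle heart and 3 lie below every vehicle heart.

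Means of Edn1 were 2.18 ± 0.183, 2.04 ± 0.456 and 2.03 ± 0.728 CPM (vehicle, CBD3 and CBD30; SD, n = 7, 6 and 5). The log2 fold changes were -0.10 ± 0.19 for CBD3 (SE; interval -0.50 to 0.30; edgeR adjusted p = 0.833) and -0.099 ± 0.20 for CBD30 (interval -0.52 to 0.32; adjusted p = 0.817). The lowest library held 51 counts, with an exact 95% Poisson interval of 38.0 to 67.1 counts, and the highest 225 (197 to 256). The spread between vehicle hearts, a coefficient of variation of 8.38%, compares with 8.74% from counting error alone. In CBD3 and CBD30 hearts it was 22.4% and 35.8%, against counting errors of 8.35% and 9.54%. These spreads were compared after the values were seen and were not tested.

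Between the doses no member stood apart. The log2 differences of CBD30 from CBD3 were -0.15 ± 0.13 for Vegfa, 0.067 ± 0.13 for Kdr, 0.034 ± 0.17 for Flt1, 0.046 ± 0.12 for Nos3 and 0.0029 ± 0.21 for Edn1 (SE; edgeR adjusted p = 0.999 for each). Leaving out 1 heart took Vegfa from -0.24 (without CBD30 4.2) to -0.050 (without CBD30 1.2) and Kdr from 0.018 (without CBD30 4.2) to 0.13 (without CBD30 2.1). The widest 95% interval, that of Edn1, was -0.43 to 0.44, and that of Vegfa was -0.42 to 0.12. At an unadjusted p under 0.05 there were 0 members, where 294 genes or 1.73% passed.

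**Figure D2:**
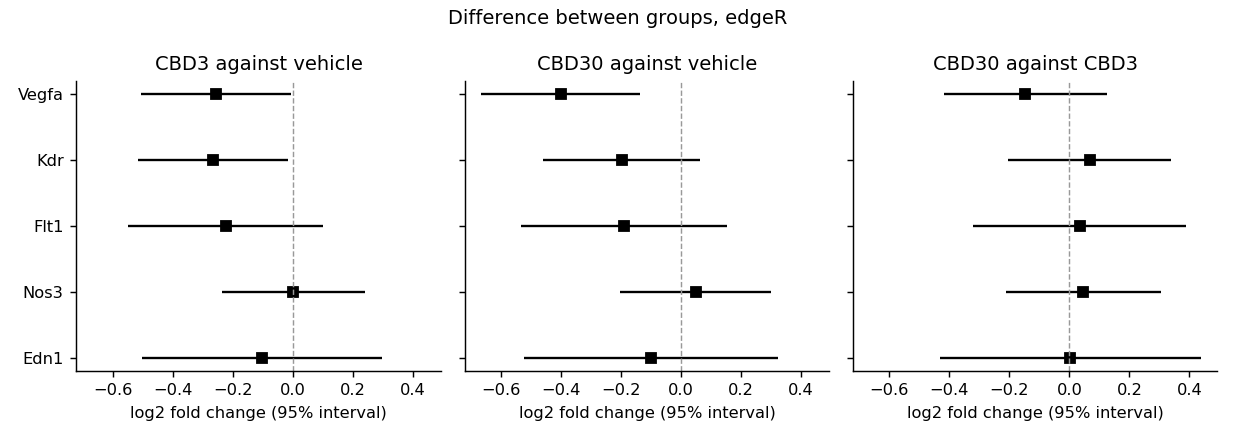
Log2 fold change of each gene (square) with its 95% interval (line) from the edgeR fit of all 18 hearts, for both doses against vehicle and between the doses. Of the intervals that do not cross 0, Vegfa at CBD30 is farthest from it (-0.67 to -0.14), followed by Kdr and Vegfa at CBD3.

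By count, 4 of the 5 members had a negative log2 fold change for CBD3 and 4 for CBD30, where 53.4% and 53.2% of all tested genes did. Their median was -0.22 for CBD3 and -0.19 for CBD30, beside -0.020 and -0.021 over all genes. Unadjusted p was under 0.05 and the level lower for 2 members at CBD3 (Vegfa and Kdr), where 5.03% of all genes met that rule, and for 1 at CBD30 (Vegfa), where 7.31% did. Both comparisons share the same 7 vehicle hearts, so their values are not independent. The order of the group means was vehicle, CBD3, CBD30 from high to low for Vegfa and vehicle, CBD30, CBD3 for Kdr and Flt1. For Nos3 it was CBD30, CBD3, vehicle, and for Edn1 vehicle, CBD3, CBD30. Within these orders, neighbours differed by less than the larger of their SDs, except vehicle and CBD3 for Vegfa.

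Library sizes differed with the last digit of the code, so the differences were also measured within each. In hearts ending in 1 (4 vehicle, 3 CBD3, 2 CBD30), Flt1 had a log2 fold change of -0.47 ± 0.16 at CBD3 and -0.59 ± 0.19 at CBD30 (SE; edgeR adjusted p = 0.387 and 0.198). In hearts ending in 2 (3 of each group) it was 0.094 ± 0.21 and 0.19 ± 0.21 (adjusted p = 0.9999 and 0.998). The difference between the digits was itself tested as an interaction, 0.57 ± 0.28 for CBD3 (edgeR adjusted p = 0.532) and 0.79 ± 0.30 for CBD30 (adjusted p = 0.376, unadjusted 0.0171), and was not called. For CBD30 this test called 1 gene of 17009, and 2187 had an unadjusted p under 0.05. In the edgeR fits of hearts ending in 1, 2249 of 17640 genes had an unadjusted p under 0.05 at CBD3 and 4265 at CBD30. In those of hearts ending in 2, 586 and 798 of 16659 genes did. Flt1 in vehicle hearts averaged 98.0 ± 20.7 CPM in codes ending in 1 (SD, n = 4) and 75.6 ± 20.4 in codes ending in 2 (n = 3).

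Vegfa had a negative sign in both sets, at -0.33 ± 0.15 and -0.15 ± 0.20 for CBD3 and -0.52 ± 0.17 and -0.28 ± 0.20 for CBD30 (log2, SE; digits 1 and 2). Kdr did so too, at -0.34 ± 0.16 and -0.16 ± 0.18 for CBD3 and -0.32 ± 0.18 and -0.066 ± 0.18 for CBD30. Nos3 changed sign, from 0.23 ± 0.20 in digit 1 to -0.10 ± 0.14 in digit 2 at CBD30. None of the 10 interactions of dose and digit passed the adjusted threshold (adjusted p = 0.376 to 0.956). All 3 hearts farthest out on the first component have codes ending in 1, and their part in the values of that set was not tested.

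**Figure D3:**
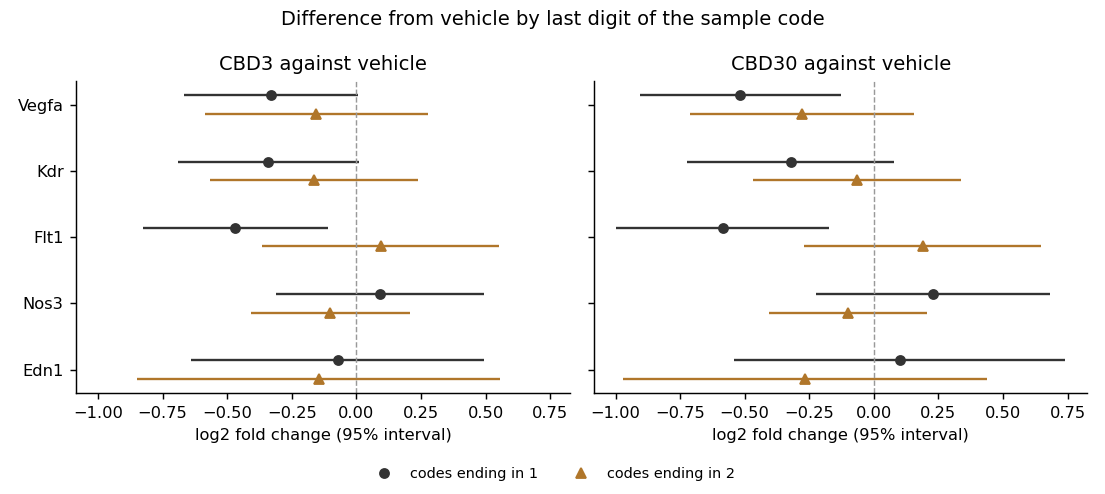
Log2 fold change against vehicle with its 95% interval, fitted in hearts with codes ending in 1 (circles) and in 2 (triangles) alone. Flt1 at CBD30 reads -0.59 in the first set and 0.19 in the second, while Vegfa and Kdr are negative in both sets at both doses.

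Whether the genes vary together between hearts of 1 group was measured on log2 CPM after subtracting each group's mean. Vegfa and its receptor Kdr had a Pearson r of 0.60 (permutation p = 0.0106) and a Spearman rho of 0.62 (p = 0.00756) over 18 hearts. The Benjamini-Hochberg adjusted permutation p over the 10 pairs was 0.0530 for r and 0.0756 for rho. The receptors Kdr and Flt1 had an r of 0.66 (permutation p = 0.00926, adjusted 0.0530) and a rho of 0.55 (p = 0.0349, adjusted 0.156). By r, though not by rho for Kdr and Flt1, both pairs fell just short of the threshold. Without the 2 hearts farthest from the median of the first gene, r was 0.71 for Vegfa and Kdr and 0.48 for Kdr and Flt1. Vegfa and Flt1 had an r of 0.39 (permutation p = 0.128, adjusted 0.428).

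Within each digit of the code, none of the 3 pairs passed, and the difference between the digits was not tested. In codes ending in 1, r was 0.90 for Vegfa and Kdr, 0.88 for Kdr and Flt1 and 0.85 for Vegfa and Flt1 (n = 9; exact permutation p = 0.104, 0.0556 and 0.0799). In the codes ending in 2 it was 0.34, 0.45 and 0.016 (n = 9; exact permutation p = 0.194, 0.449 and 0.944). Scaled by library size alone, r was 0.81, 0.81 and 0.66 for these pairs, all past the threshold (permutation, adjusted p = 0.00375, 0.00375 and 0.0240). Single hearts also moved the calls. Without CBD30 1.2 all 3 pairs passed, at 0.75, 0.68 and 0.66 (permutation, adjusted p = 0.0228, 0.0335 and 0.0335). Without vehicle 2.2, Vegfa and Kdr (0.66) and Kdr and Flt1 (0.71) passed (permutation, adjusted p = 0.0339 for both), and without CBD3 1.2, Kdr and Flt1 did (0.77, adjusted p = 0.0173). In the other direction, without vehicle 3.1 r was 0.51 for Vegfa and Kdr and 0.63 for Kdr and Flt1 (permutation, adjusted p = 0.194 and 0.192), and without vehicle 1.2 the latter was 0.56. The first principal component moved with these genes. On log2 CPM without subtracting group means, its r over the 18 libraries was -0.73 for Vegfa, -0.70 for Kdr and -0.80 for Flt1. For Nos3 that r was 0.49 and for Edn1 -0.075. The part of this component in the relations was not tested.

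Nos3, like both receptors an endothelial gene, showed no relation with them that passed a test. Its r was 0.025 with Kdr and -0.26 with Flt1 (permutation p = 0.955 and 0.413, adjusted 0.955 and 0.689). For Edn1, r lay between -0.43 with Vegfa and 0.069 with Flt1 (permutation p = 0.185 and 0.760). The value for Vegfa and Edn1 rests on 2 hearts: without CBD30 1.2 and CBD30 4.2 it was 0.040. It was 0.24 in codes ending in 1 and -0.82 in codes ending in 2 (n = 9; exact permutation p = 0.406 and 0.157). In the vehicle heart 2.1, Kdr was at 153 CPM, the median of its group, and Nos3 at 65.8 CPM, the lowest of all 18 hearts.

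**Figure D4:**
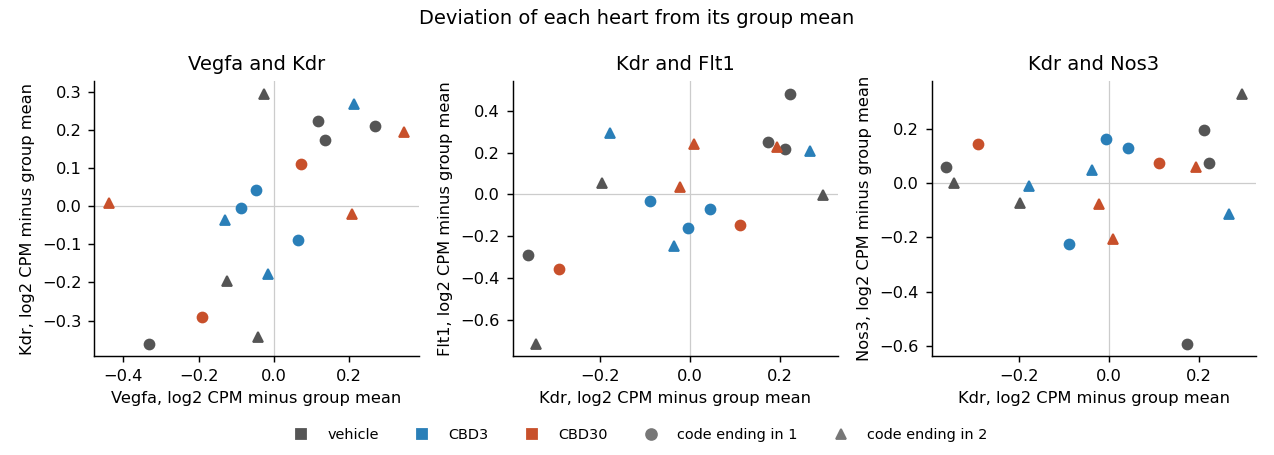
Deviation of each heart from its group mean, in log2 CPM, for Vegfa and Kdr (r = 0.60), Kdr and Flt1 (r = 0.66) and Kdr and Nos3 (r = 0.025); colours are groups, circles codes ending in 1 and triangles codes ending in 2. The vehicle heart 2.1 is the lowest point of the Nos3 panel.

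Of 13526 other genes whose mean level reached 1 CPM, many followed a member more closely than the other members did. For Flt1, 305 genes had an r above 0.8 over the 18 hearts, on the same values with group means subtracted, for Vegfa 204, for Kdr 152, for Nos3 82 and for Edn1 0. The closest to Flt1 was ENSRNOG00000058663 (r = 0.95) and the closest to Vegfa ENSRNOG00000017113 (r = 0.94), which the sources do not name. Kdr had rank 1162 of 13526 in likeness to Flt1 and rank 1091 in likeness to Vegfa. These correlations describe the same 18 libraries and carry no test.

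Ratios of counts within a heart do not depend on library scaling, nor are they corrected for gene length, and 4 of them were compared between groups. For the receptor genes, Flt1/Kdr, the mean log2 ratio was -0.66 ± 0.25 over the 7 vehicle hearts (SD). It was -0.61 ± 0.25 over the 6 CBD3 hearts and -0.64 ± 0.18 over the 5 CBD30 hearts. Counts per gene do not set the soluble form of Flt1 apart. The ligand over its receptor, Vegfa/Kdr, was 2.14 ± 0.19 in vehicle, 2.14 ± 0.12 in CBD3 and 1.90 ± 0.27 in CBD30 hearts. The CBD30 hearts were at 1.87 (1.1), 2.001 (2.1), 1.45 (1.2), 2.13 (3.2) and 2.06 (4.2), inside or below the vehicle range of 1.81 to 2.44. The difference was -0.23 against vehicle and -0.23 against CBD3 (exact two-sided permutation p = 0.111 and 0.0996, adjusted 0.667 over the 12 ratio tests for both). Without the heart CBD30 1.2 both differences were -0.12.

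The dilator over the constrictor gene, Nos3/Edn1, had a mean log2 ratio of 5.51 ± 0.30 in vehicle, 5.66 ± 0.43 in CBD3 and 5.76 ± 0.62 in CBD30 hearts (SD). The difference from vehicle was 0.15 for CBD3 and 0.25 for CBD30 (exact two-sided permutation p = 0.484 and 0.391, adjusted 0.961 and 0.939). The CBD30 difference was 0.036 without CBD30 4.2 and 0.45 without CBD30 1.2. Vegfa/Flt1 averaged 2.80 ± 0.33, 2.74 ± 0.16 and 2.54 ± 0.38 in the 3 groups, and its differences did not pass either (adjusted exact permutation p = 0.939 to 0.961). Its CBD30 difference of -0.25 from vehicle was -0.084 without CBD30 1.2. In every group the heart coded 1.2 stood away from the rest of its group on this ratio, at 3.47 in vehicle, 2.43 in CBD3 and 1.86 in CBD30 hearts. None of the 12 ratio tests passed, and the groups overlapped in all of them.

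**Figure D5:**
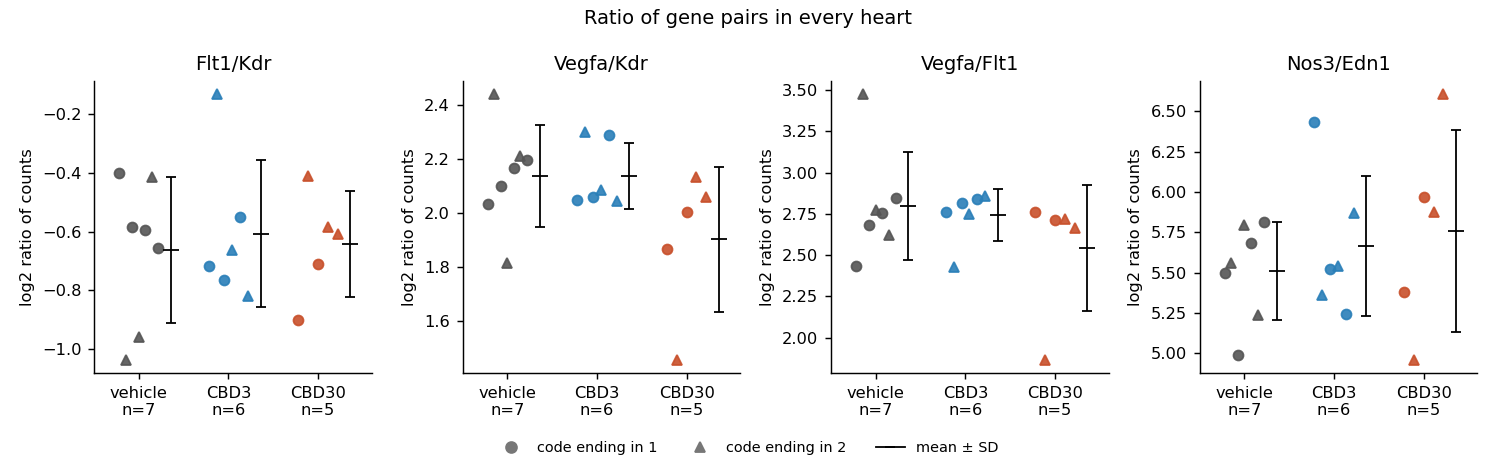
Log2 ratio of counts of 4 gene pairs in every heart by group (axes do not start at 0); circles are codes ending in 1, triangles codes ending in 2, bars the mean ± SD. On Vegfa/Flt1 the heart coded 1.2 is the highest of the vehicle group (3.47) and the lowest of both cannabidiol groups (2.43 and 1.86).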

How the data were processed

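Bulk RNA sequencing libraries of 18 hearts were analysed. Per the labels' protocols, RNA of flash-frozen hearts was extracted with Trizol, all RNA integrity numbers were 7.0 or higher, and libraries came from a stranded messenger RNA kit. The table deposited by the authors holds raw counts, with Ensembl genes as lines and samples as columns. Per the submitters' processing notes, featureCounts, edgeR and the build mRatBN7.2 were used. The aligner, annotation and counting options were not given in the sources used here. The replicate number could be matched to 14 columns, and the other 4, whose codes appear under more than 1 vehicle label, were used as vehicle samples without a number.

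Genes were filtered with filterByExpr by group (minimum count 10, minimum total 15), scaled by TMM and compared by edgeR 4.0.16, whose quasi-likelihood test was fitted once to all 18 samples (R 4.3.3), Benjamini-Hochberg adjusted over the 17009 genes tested, threshold 0.05. SEs came from the F statistic. Log2 CPM used a prior count of 2. DESeq2 1.42.0 and limma 3.58.1 were alternatives, as were other scalings and filters, the code digit, a replicate block and each sample left out. Ratios were tested with exact permutation tests (scipy 1.17.1) and covariation with 100000 permutations within groups. The programs were tested on simulated data.

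The members, gene lists and tests were chosen with earlier results of these data known. The selection held only the 5 members. A separate rule for which genes the text names added those whose levels, ranked from these data, were most like a member's. The pathway and cell type lists fixed by symbol could not be applied, because the reference (GRCr8, 47357 genes) holds an Ensembl ID for 0 genes.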

Additional observations from a re-analysis of the deposited data

Results flagged for a closer look

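Of 27 sets of 5 to 7 hearts tested for a value far from the others (5 genes and 4 ratios in 3 groups), 3 held one, where chance gives about 1 in 20. All 3 are log2 Vegfa/Flt1 in the heart coded 1.2. In the vehicle group it was 3.47 against 2.85 in the nearest other heart, with Vegfa at 580 CPM and Flt1 at 52.2 CPM. In CBD3 it was 2.43 against 2.75, with Vegfa at 497 and Flt1 at 92.2 CPM. In CBD30 it was 1.86 against 2.66, with Vegfa at 330 and Flt1 at 90.5 CPM. The vehicle heart lay above its group and the exposed hearts below theirs. No label says what the code 1.2 stands for or whether these hearts share anything, and the cause was not tested.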

How the results depend on the processing

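Labels tie no heart to a litter, and the code is unexplained. The 7 vehicle hearts serve both doses. Counting error adds to the spread of Edn1, which had 51 to 225 counts in a library. Leaving out the 3 hearts farthest out on the first component, and fitting the 14 numbered samples without a block, were chosen after seeing the data. Of 358 alternatives that did not leave out a single heart, 299 kept the result, and the cause of the others was not tested. For 38 of the 299, which are counts of called genes, this means that the count stayed at 0. For the rest it means the same direction and side of the threshold.

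Scaling by library size gave Nos3 -0.045 (CBD3) and -0.010 (CBD30), Edn1 -0.011 between doses, and covariation of 0.81 (Vegfa and Kdr), 0.66 (Vegfa and Flt1), 0.81 (Kdr and Flt1), 0.35 (Vegfa and Nos3), 0.20 (Kdr and Edn1) and 0.22 (Flt1 and Nos3). Kdr and Nos3 gave -0.026 with relative log expression factors. Without centring, covariation was 0.65 (Vegfa and Kdr), 0.70 (Kdr and Flt1) and -0.014 (Kdr and Nos3). Edn1 between doses was -0.00061 without the low-count filter and -0.0025 with limma voom, and Nos3 for CBD3 was -0.0062 at a mean of at least 1 CPM. DESeq2 called 19, 133 and 1 genes (CBD3, CBD30, between doses), and fitting only the groups compared called 1 gene between doses.

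Deviations of same-numbered samples correlated at r = -0.20 to 0.31 (8 pairs, 2 over 0.1). These values cannot decide whether the numbers pair the hearts, because paired hearts need not deviate together and no label explains the numbers. With the replicate block, 0 genes were called, and Vegfa gave -0.097 and -0.26, Kdr -0.071 and 0.035, Flt1 0.23 and 0.27, Nos3 -0.11 and -0.038 and Edn1 -0.36 and -0.43 (CBD3 and CBD30), and Edn1 -0.071 between doses. The same 14 samples without a block gave Vegfa -0.17 and -0.32, Kdr -0.18 and -0.11 and Flt1 0.011 and 0.045 (CBD3 and CBD30). Nos3 was at -0.061 and -0.015 and Edn1 at -0.16 and -0.16. The vehicle hearts among these 14 all have codes ending in 2, while both cannabidiol groups hold codes of either ending. Both fits therefore also change which vehicle hearts are compared, while the step between them keeps the hearts and adds the block. The replicate numbers go largely with the ending of the code, so the part of the block cannot be told apart from that of the code. Without the 3 hearts farthest out, Nos3 gave -0.086 and -0.076 and Flt1 at CBD30 0.046.

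Codes ending in 1 gave Edn1 0.10 (CBD30), Flt1 -0.12 (between doses), Flt1/Kdr -0.12 and -0.25 and Vegfa/Flt1 0.13 and 0.058 (CBD3 and CBD30), Nos3/Edn1 -0.057 (between doses), and covariation of 0.24 (Vegfa and Edn1), -0.098 (Kdr and Nos3) and 0.20 (Kdr and Edn1). Codes ending in 2 gave Flt1 0.094 and 0.19, Nos3 -0.10 and -0.10 (CBD3 and CBD30), Nos3 -0.00024, Edn1 -0.12 and Flt1/Kdr 0.0031 (between doses), Vegfa/Kdr -0.011 (CBD3), and covariation of 0.38 (Vegfa and Nos3) and 0.068 (Flt1 and Nos3). As differences in medians, Flt1/Kdr gave -0.098, -0.016 and 0.082 (CBD3, CBD30, between doses), Vegfa/Kdr -0.094, Vegfa/Flt1 0.033 and Nos3/Edn1 -0.028 (CBD3).

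Leaving out each heart gave 0 to 267 genes for CBD30 (267 without vehicle 3.1, 1 without CBD30 1.1). Nos3 ranged from -0.080 to 0.060 (CBD3) and -0.034 to 0.11 (CBD30), Edn1 from -0.16 to 0.0033 (CBD3), -0.26 to 0.051 (CBD30) and -0.16 to 0.15 (between doses), and Flt1 from -0.32 to -0.14 (CBD3), -0.28 to -0.10 (CBD30) and -0.027 to 0.11 (between doses). Ratios ranged for Flt1/Kdr from -0.039 to 0.0995 (CBD3), -0.042 to 0.085 (CBD30) and -0.094 to 0.060 (between doses), for Vegfa/Kdr from -0.053 to 0.051 and Vegfa/Flt1 from -0.12 to 0.057 (CBD3), and for Nos3/Edn1 from -0.0028 to 0.24 (CBD3) and -0.12 to 0.30 (between doses). The digit interaction of Edn1 (CBD3) ranged from -0.31 to 0.11. Covariation ranged from 0.51 to 0.75 (Vegfa and Kdr), 0.32 to 0.66 (Vegfa and Flt1), 0.56 to 0.77 (Kdr and Flt1), -0.26 to 0.14 (Vegfa and Nos3), -0.16 to 0.30 (Kdr and Nos3), -0.19 to 0.048 (Kdr and Edn1) and -0.045 to 0.26 (Flt1 and Edn1).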
